A study of Homo sapiens with 14 samples.

Results

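Autophagy delivers cytoplasm, damaged organelles and protein aggregates to lysosomes inside double-membrane vesicles, the autophagosomes. A kinase complex around ULK1 starts the process, a lipid kinase complex that contains beclin 1 marks the forming membrane, and ubiquitin-like conjugation by ATG7 and ATG5 fixes LC3 and GABARAP proteins to it. Receptors such as p62, optineurin and NBR1 bind ubiquitinated cargo and hold it to LC3 or GABARAP proteins. Pancreatic cancers are known for a high basal level of autophagy. RNA levels alone do not measure this flux, because autophagy itself degrades LC3 and p62 proteins.

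The 10 genes described here were listed by name: ULK1, BECN1, ATG5, ATG7, MAP1LC3B, GABARAPL1, SQSTM1, OPTN, NBR1 and WIPI1. Rows were taken by symbol from a table of reads per gene that holds 28120 genes. There were 9 members with a row, and each of them passed the filter on low counts that left 15181 genes for testing; WIPI1, which reads the lipid mark of the forming membrane, was not analysed here. RNA came from PANC-1, an established human pancreatic cancer line of epithelial origin. The 7 groups, each of 2 libraries, were PA at 3, 12 and 24 h and DMSO at 0, 3, 12 and 24 h, where PA stands for proanthocyanidins, polyphenols of plants, at 20 µg/ml and DMSO is their solvent. All groups share the same unmodified line and serum-containing medium, and no genotype varies between them. The submitters call the second library of each group a biological replicate without saying whether it came from a separate culture, so the p-values rest on a spread that may be technical.

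The libraries held 26403984 to 35213154 counted reads. Of 5 epithelial markers, the keratins of simple epithelia were high, with KRT8 at 68437 to 304672 reads, KRT18 at 59535 to 193408 and KRT19 at 15316 to 101179, while KRT7 had 194 to 603 reads and EPCAM 107 to 224. Among leukocyte markers, CD14 had 24 to 148 reads, and PTPRC had 0 to 5, CD3E 0 to 1 and LYZ 0 to 10. Of 4 endothelial markers, KDR had 8 to 38 reads, and PECAM1 had 0 to 10, CDH5 0 to 7 and VWF 0 to 3. Of 5 fibroblast markers, COL1A1 had 269 to 943 reads, while COL1A2, DCN, LUM and PDGFRB had at most 8 in any library. The summed level of the epithelial markers was 6766 to 20919 CPM in the 6 PA libraries and 5001 to 6020 CPM in the 8 DMSO libraries. That of the leukocyte markers was 1.80 to 5.43 CPM with PA and 0.931 to 2.06 CPM with DMSO, that of the fibroblast markers 20.4 to 28.97 CPM and 8.27 to 27.0 CPM, and that of the endothelial markers 0.353 to 1.26 CPM and 0.639 to 1.30 CPM. Over all times pooled, the epithelial sums did not overlap between the treatments and the other 3 did. Within each time the leukocyte sums were higher with PA, at 24 h by 5.30 to 5.43 against 1.79 to 2.06 CPM. Fibroblast sums overlapped at 3 h but were higher with PA at 12 h (22.8 to 23.4 against 8.27 to 10.7 CPM) and 24 h (20.4 to 20.5 against 12.7 to 13.5 CPM). Endothelial sums were higher with PA at 3 h (1.16 to 1.26 against 1.08 to 1.13 CPM) and overlapped later. The part of these sums in the results was not tested. The slope of log2 CPM (counts scaled to library size with TMM factors, each gene centred on its mean) on transcript GC content was 0.028 to 0.58 per 10 percentage points of GC in PA libraries and -0.32 to -0.062 in DMSO libraries. The first PA library at 12 h stood apart from its partner, with a slope of 0.58 against 0.12. The origin of the slopes was not tested. Changes of the members at 12 h are therefore given with and without that library, and those at 12 and 24 h with and without a correction for GC content and transcript length.

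The promoters shown here are those of the 4 members that were higher at 24 h by the largest margins. They were chosen by these changes, and shared control of these members was not tested. Each line gives the 250 bases that precede a transcription start in RefSeq, build GRCh38.p14, plus strand, 5′ to 3′. For SQSTM1 the window of the most downstream of 3 annotated starts is shown. The windows are chr12:131894372-131894621 for ULK1, chr16:87392086-87392335 for MAP1LC3B, chr12:10212627-10212876 for GABARAPL1 and chr5:179820655-179820904 for SQSTM1.
ULK1: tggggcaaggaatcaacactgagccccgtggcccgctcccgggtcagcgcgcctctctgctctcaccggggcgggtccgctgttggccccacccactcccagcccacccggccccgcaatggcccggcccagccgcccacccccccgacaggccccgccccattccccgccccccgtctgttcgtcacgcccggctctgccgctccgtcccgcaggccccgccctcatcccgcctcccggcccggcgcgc
MAP1LC3B: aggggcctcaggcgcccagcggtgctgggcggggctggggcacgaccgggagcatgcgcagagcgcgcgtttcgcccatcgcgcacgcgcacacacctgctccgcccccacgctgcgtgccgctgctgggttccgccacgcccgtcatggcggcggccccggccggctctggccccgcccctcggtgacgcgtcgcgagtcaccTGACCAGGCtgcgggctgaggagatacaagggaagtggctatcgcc
GABARAPL1: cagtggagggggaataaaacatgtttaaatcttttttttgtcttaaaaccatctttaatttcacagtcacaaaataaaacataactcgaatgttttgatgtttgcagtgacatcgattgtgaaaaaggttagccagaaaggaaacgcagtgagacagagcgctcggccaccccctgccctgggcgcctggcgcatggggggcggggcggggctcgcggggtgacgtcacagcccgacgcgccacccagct
SQSTM1: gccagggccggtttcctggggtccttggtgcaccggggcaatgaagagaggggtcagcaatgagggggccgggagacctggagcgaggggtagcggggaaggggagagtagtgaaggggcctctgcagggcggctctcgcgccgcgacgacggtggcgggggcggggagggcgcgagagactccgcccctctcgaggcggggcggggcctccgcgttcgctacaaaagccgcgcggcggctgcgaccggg
Capitals mark the match to an antioxidant response element, TGACNNNGC, on the plus strand of the MAP1LC3B window, which starts at position -46 relative to the transcription start.

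In all, 15 RefSeq windows of 300 bases (250 before and 50 after a start) matched the 10 genes. They were searched on both strands for 4 motifs: CACGTG, the E-box bound by TFEB and TFE3; TGACNNNGC, the core antioxidant response element bound by NRF2; GTAAACA, a forkhead site; and TGATGNAA, a composite site bound by ATF4. The MAP1LC3B match was the only one. Among 35116 promoter windows of the same length, 7.26% held the E-box, 13.3% the antioxidant response element, 3.42% the forkhead site and 3.62% the ATF4 site. The absence of a match says only that these letters do not occur in the window.

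Levels were compared between genes in RPKM, reads scaled to the length of the gene and the size of the library, as deposited. SQSTM1 was the most abundant member in every group, with 327 to 957 RPKM over the 14 libraries, and its mean of 513 RPKM lay above that of 99.4% of the tested genes. OPTN came next in every group, with 31.9 to 44.5 RPKM. BECN1, NBR1 and MAP1LC3B had means of 20.4, 19.7 and 19.6 RPKM over all libraries, ATG5 had 13.2, ATG7 8.06, ULK1 6.98 and GABARAPL1 4.02. GABARAPL1 was last in 6 groups. In the PA libraries at 24 h, MAP1LC3B took the third place at 26.9 and 29.9 RPKM and ULK1 stood above ATG5, while ATG7 was last at 6.46 and 6.47 RPKM. In the DMSO libraries at 24 h, MAP1LC3B took the sixth place at 16.6 and 14.3 RPKM, its range overlapping that of ATG5 above it, and ULK1 took the eighth. SQSTM1 alone took 0.183% to 0.353% of all counted reads in PA libraries and 0.126% to 0.142% in DMSO libraries.

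Relative to DMSO at the same time, PA-treated cells had more RNA of 5 members at 12 h and at 24 h, namely ULK1, MAP1LC3B, GABARAPL1, SQSTM1 and OPTN, and less of 1, ATG5. BECN1, ATG7 and NBR1 did not pass the threshold at any time, and at 3 h no member did. In such bulk samples fewer cells of a kind and less RNA per cell cannot be told apart. The counts have to be read against a broad response. The calls, at an adjusted p under 0.05 in edgeR's quasi-likelihood test, took in 1.72% of all tested genes at 3 h, 48.5% at 12 h and 54.6% at 24 h. For higher genes alone the share was 24.4% at 12 h and 27.2% at 24 h, and for lower genes 24.1% and 27.5%. The median log2 change of the 9 members was 0.075 at 3 h, 0.40 at 12 h and 0.50 at 24 h, beside -0.0055, 0.0079 and -0.0082 over all tested genes. Both PA libraries lay above both DMSO libraries for 4 members at 3 h, 7 at 12 h and 8 at 24 h, and below them for 1 at each time; such separation in either direction was seen for 54.6%, 75.1% and 79% of all genes. Of all genes, 26.7%, 37.3% and 39% lay above and 27.9%, 37.8% and 40% below. At 3 h, 1 member (SQSTM1) had an unadjusted p under 0.05, as did 17.1% of all tested genes, and DESeq2 called that 1 member and 4.16% of the genes to which it gave an adjusted p.

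**Figure D1:**
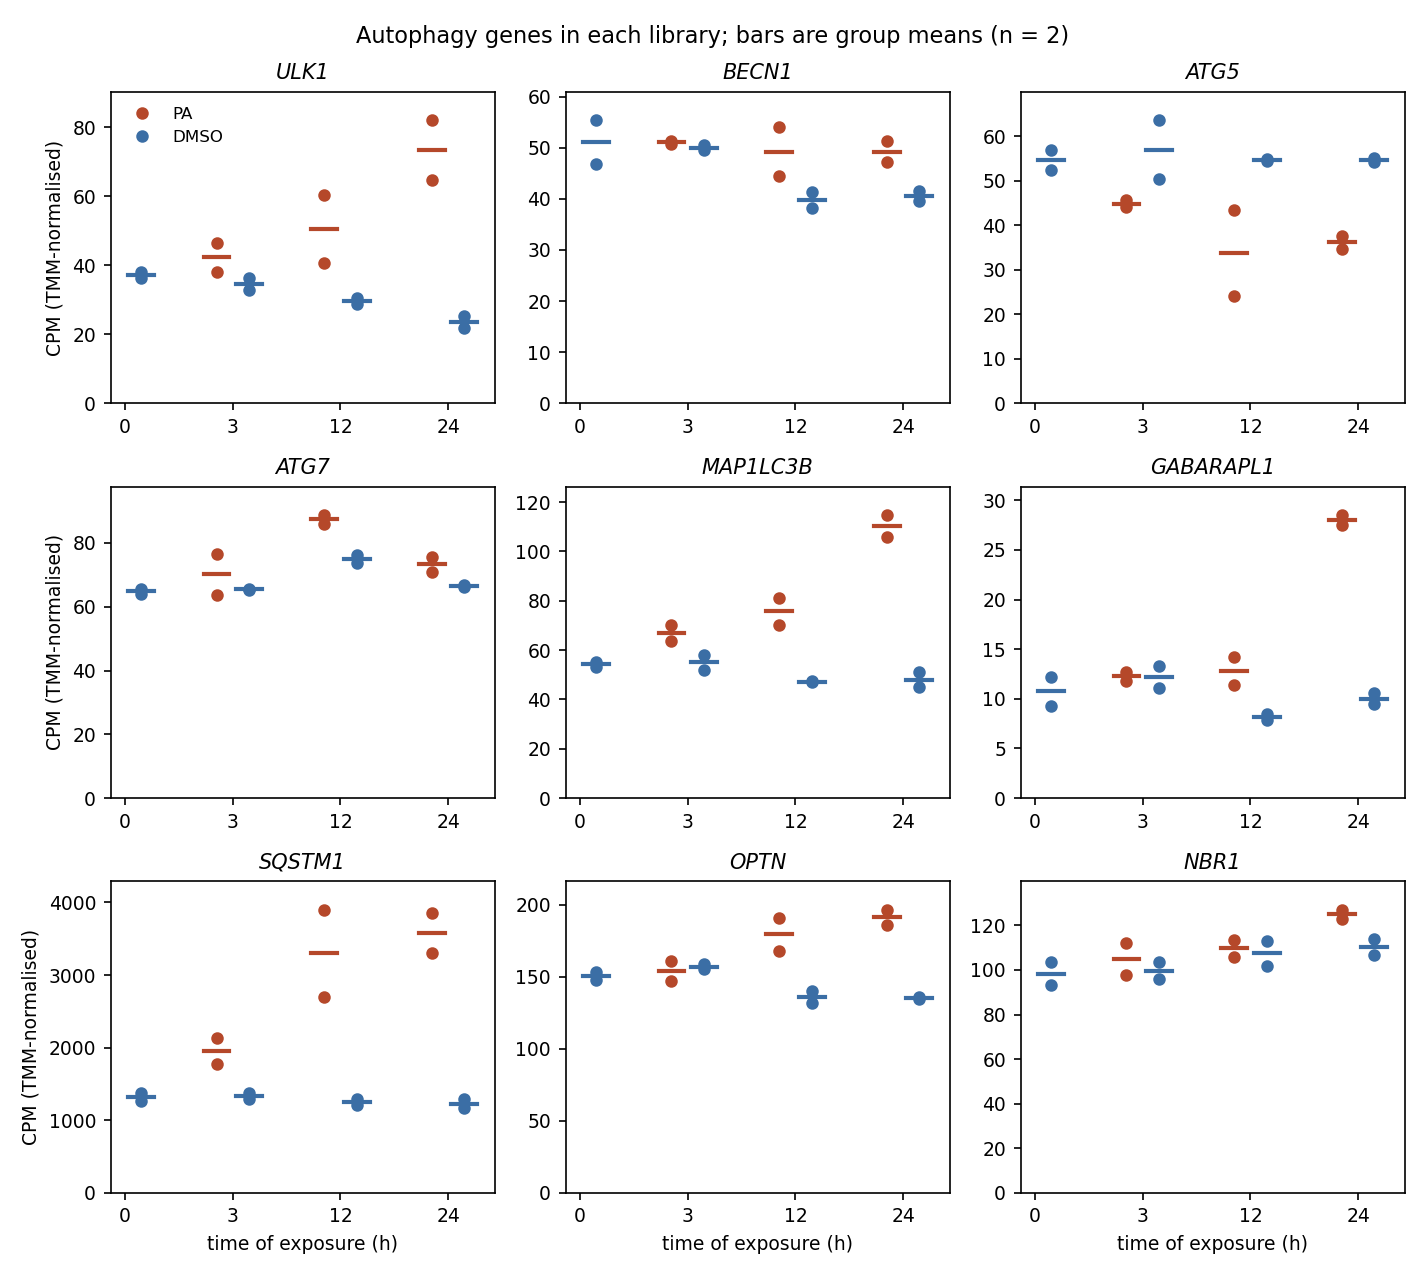
TMM-normalised CPM (vertical axes, starting at 0) of the 9 measured autophagy genes in each library against hours of exposure (categories, not to scale), with PA points left of DMSO points and bars for the mean of 2 libraries. ULK1, MAP1LC3B, GABARAPL1 and SQSTM1 separate most at 24 h, and the PA libraries of ATG5 lie below those of DMSO at 3, 12 and 24 h.

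ULK1 encodes the serine/threonine kinase that opens autophagy when nutrient signalling through mTORC1 falls. The gene spans chr12:131894651-131923167 on the plus strand of GRCh38. At 3 h it had 46.5 and 38.1 CPM in PA libraries, against 36.3 and 32.8 CPM in DMSO libraries. At 12 h the PA libraries had 60.5 and 40.7 CPM and the DMSO libraries 28.8 and 30.6 CPM. At 24 h the values were 64.6 and 82.0 CPM with PA and 21.8 and 25.3 CPM with DMSO, the widest separation of the 3 times. The groups did not overlap at any time. The log2 change was 0.29 ± 0.19 (SE) at 3 h, 0.77 ± 0.19 at 12 h (adjusted p = 0.00509) and 1.64 ± 0.19 at 24 h (adjusted p = 2.71e-05), which is a 3.11-fold higher level at 24 h. In the vehicle cultures themselves ULK1 had 21.8 and 25.3 CPM at 24 h against 36.3 and 38.2 CPM at 0 h. That difference of -0.66 ± 0.19 did not pass the threshold (adjusted p = 0.0879). ULK1 has the most GC-rich transcript of the members, at 64.2% GC. After correction for GC content and length its change was 0.15 at 12 h (adjusted p = 0.304), which ends the call, and 1.02 at 24 h (adjusted p = 2.77e-06). Without the first PA library, the 12 h change was 0.46 (adjusted p = 0.0568).

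BECN1 encodes beclin 1, the scaffold of the lipid kinase complex, and lies on the minus strand at chr17:42810134-42833350. It had 54.0 and 44.4 CPM in PA libraries at 12 h, against 38.2 and 41.3 CPM in DMSO libraries. At 24 h it had 47.1 and 51.2 CPM with PA and 41.5 and 39.5 CPM with DMSO. PA libraries were above DMSO libraries at both times, by little. The log2 changes were 0.31 ± 0.14 at 12 h (adjusted p = 0.0858; 95% interval -0.025 to 0.64) and 0.28 ± 0.14 at 24 h (adjusted p = 0.107; 95% interval -0.053 to 0.61). DMSO cultures themselves had less BECN1 at 12 h than at 0 h, with 38.2 and 41.3 CPM against 46.9 and 55.4 CPM (log2 change -0.36, unadjusted p = 0.0222, adjusted p = 0.206). Of the 4 PA libraries at 12 and 24 h, 3 lay within the range of the DMSO libraries at 0 h. After the correction for GC content and length, BECN1 was called higher at both times, by 0.39 (adjusted p = 0.0153) and 0.40 (adjusted p = 0.0115). When a library was left out, the uncorrected 12 h change was between 0.16 and 0.45. Without the first PA library, the 12 h change was 0.16 (adjusted p = 0.448). BECN1 shares 795 exonic bases with CNTD1 and 300 with PSME3 on the other strand. The strand setting of the counting is not given in the sources used here, so reads from such overlaps cannot be told apart.

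ATG7 and ATG5 act together in conjugation: ATG7 is the activating enzyme for both ubiquitin-like systems, and ATG5, joined to ATG12, directs LC3 to the membrane. ATG7 lies at chr3:11272309-11557665 on the plus strand. It had 88.7 and 86.0 CPM in PA libraries at 12 h, against 73.6 and 76.2 CPM in DMSO libraries, and 71.0 and 75.5 CPM against 66.2 and 66.8 CPM at 24 h. The groups did not overlap at these times, yet the log2 changes of 0.22 ± 0.13 (95% interval -0.076 to 0.52) and 0.14 ± 0.13 (95% interval -0.16 to 0.44) did not pass the threshold (adjusted p = 0.160 and 0.371). The correction gave 0.20 at 12 h (adjusted p = 0.118) and 0.19 at 24 h (adjusted p = 0.124), and without the first PA library the 12 h change was 0.20 (adjusted p = 0.313). In RPKM the order was not the same: at 24 h ATG7 had 6.47 and 6.46 RPKM with PA, against 7.44 and 7.83 RPKM with DMSO.

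**Figure D2:**
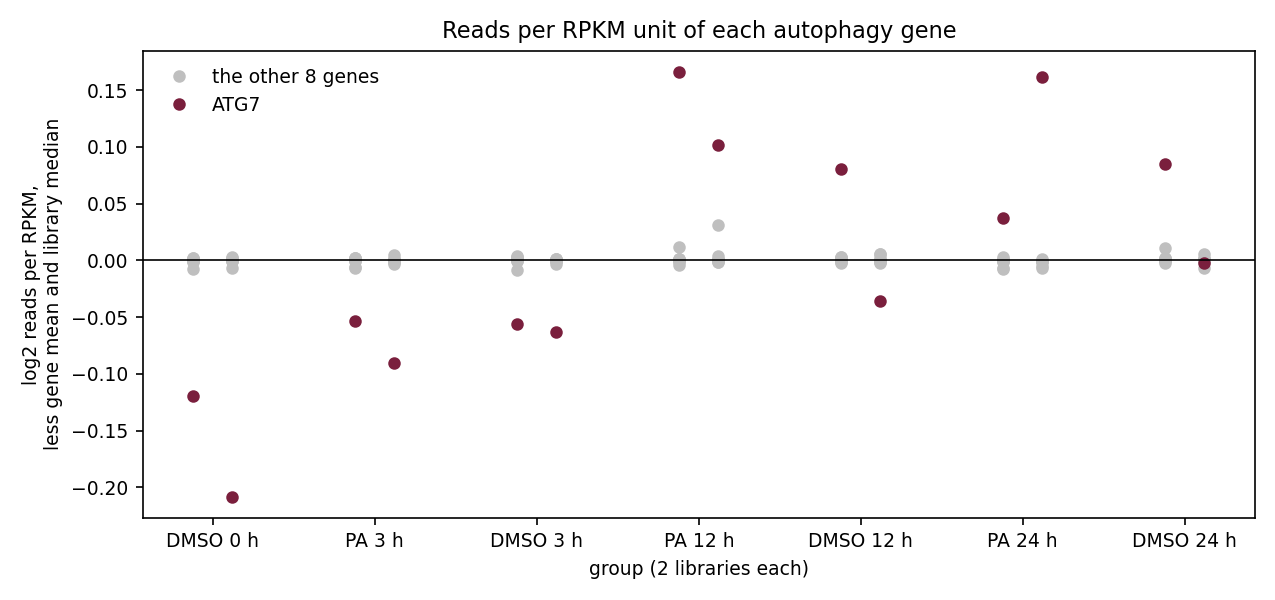
Reads per RPKM unit (log2, less each gene's mean and each library's median over 4692 genes) for ATG7 and the other 8 autophagy genes, 2 libraries per group. ATG7 ranges from -0.21 in a DMSO library at 0 h to 0.17 in a PA library at 12 h, while the other genes stay within 0.031 of 0.

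For a gene counted the same way in each library, the ratio of reads to RPKM follows library size alone. For ATG7 it deviated by up to 0.21 on the log2 scale, whereas the largest deviation of the other 8 members was 0.031, and 0.874% of 4692 well-covered genes deviated by 0.1 or more in any library. The 2 deposited tables therefore do not give ATG7 in 1 fixed proportion, for a reason that was not tested. ATG7 overlaps the antisense gene VGLL4 over 1596 exonic bases, and VGLL4 had 16.98 CPM in PA libraries at 12 h against 11.95 in DMSO libraries, and 18.3 against 10.2 at 24 h, as group means. Its part in the ATG7 values was not tested.

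ATG5 was the member with the lower level. The gene runs over chr6:106045423-106325791 on the minus strand. PA libraries had 44 and 45.5 CPM at 3 h, against 50.3 and 63.5 CPM in DMSO libraries. At 12 h the values were 24.2 and 43.4 CPM with PA and 54.8 and 54.3 CPM with DMSO, and at 24 h 34.7 and 37.6 CPM with PA and 55.1 and 54.1 CPM with DMSO. Every PA library was below every DMSO library of its time, and the 2 PA libraries at 12 h differed from each other by more than at the other times. ATG5 was 1.62-fold lower at 12 h (log2 change -0.69 ± 0.21, adjusted p = 0.0153) and 1.51-fold lower at 24 h (-0.60 ± 0.21, adjusted p = 0.0273); at 3 h the change was -0.35 ± 0.21 (adjusted p = 0.399). This direction did not hold under the correction. ATG5 has the lowest GC content of the members, 38.8%. Its corrected change was 0.14 at 12 h (adjusted p = 0.375) and 0.25 at 24 h (adjusted p = 0.0993). When a library was left out, the uncorrected 12 h change of ATG5 was between -1.17 and -0.33. The 12 h call also ended without either DMSO library or without the first PA library, the last giving -0.33 (adjusted p = 0.136), and the 24 h call ended without any 1 of its 4 libraries, at a change of -0.66 to -0.54 (adjusted p = 0.0720 to 0.120).

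**Figure D3:**
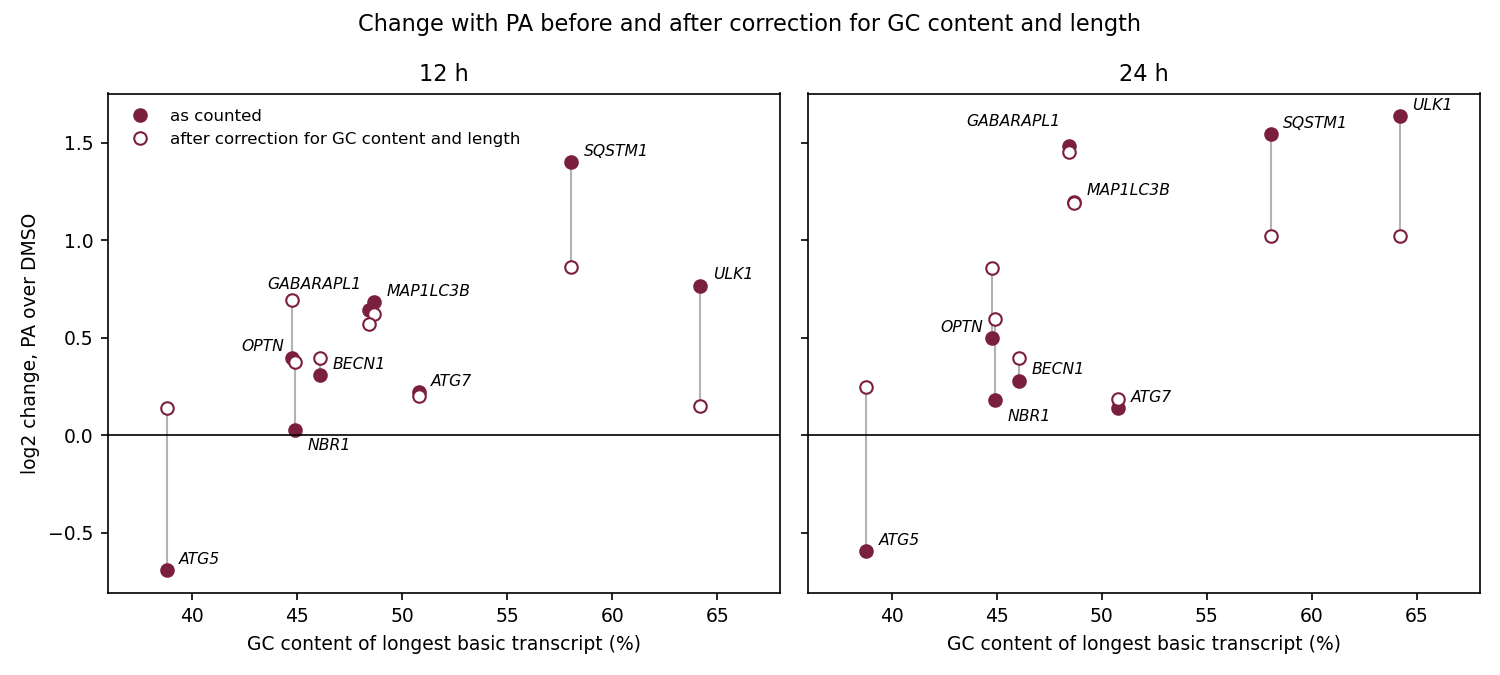
Log2 change of PA over DMSO at 12 h and 24 h for the 9 genes against the GC content of their longest basic transcript, as counted (filled) and after correction for GC content and length (open). ATG5, at 38.8% GC, moves from below to above 0, while ULK1 and SQSTM1, at 64.2% and 58.0%, move down and MAP1LC3B and GABARAPL1 hardly move.

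MAP1LC3B and GABARAPL1 encode the ubiquitin-like proteins that are joined to lipid on the autophagosome membrane and bind the receptors. MAP1LC3B, which encodes LC3B, the usual marker of autophagosomes, lies at chr16:87383995-87404779 on the plus strand. It had 63.7 and 70.2 CPM in PA libraries at 3 h, against 52.1 and 58.0 CPM in DMSO libraries. At 12 h it had 81.1 and 70.3 CPM with PA and 47.5 and 46.9 CPM with DMSO, and at 24 h 106 and 115 CPM with PA and 51.0 and 45 CPM with DMSO. PA libraries were above DMSO libraries at each time, while the DMSO libraries stayed between 45 and 58.0 CPM throughout. The log2 change was 0.28 ± 0.13 at 3 h (adjusted p = 0.298), 0.68 ± 0.13 at 12 h (adjusted p = 0.00131) and 1.20 ± 0.14 at 24 h (adjusted p = 1.93e-05), or 2.30-fold. The correction left 0.62 at 12 h and 1.19 at 24 h, and without the first PA library the 12 h change was 0.58 (adjusted p = 0.00642). The copy MAP1LC3B2 had at most 2 reads in any library, so summing both rows does not change the picture.

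GABARAPL1 lies at chr12:10212458-10223130 on the plus strand. At 3 h it had 11.8 and 12.7 CPM in PA libraries, against 11.1 and 13.3 CPM in DMSO libraries. At 12 h the values were 14.2 and 11.4 CPM with PA and 8.49 and 7.91 CPM with DMSO. At 24 h they were 27.5 and 28.5 CPM with PA and 10.5 and 9.52 CPM with DMSO, so that the PA libraries at 24 h stood far above the other 12 libraries. GABARAPL1 overlapped between groups at 3 h (log2 change 0.0065 ± 0.17), was called at 12 h (0.64 ± 0.18, adjusted p = 0.00970) and was 2.79-fold higher at 24 h (1.48 ± 0.18, adjusted p = 2.92e-05). Its 12 h level was lower in DMSO cultures than at 0 h, where it had 9.31 and 12.2 CPM (log2 change -0.40, unadjusted p = 0.0439, adjusted p = 0.271). The PA libraries at 12 h, 14.2 and 11.4 CPM, overlapped the range of the DMSO libraries at 0 h. The 12 h call ended without the first PA library (0.48, adjusted p = 0.0775) and without the second DMSO library (0.58, adjusted p = 0.0701). Under the correction the change was 0.57 at 12 h and 1.46 at 24 h.

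SQSTM1 encodes p62, the receptor that gathers ubiquitinated proteins into condensates, binds LC3 and also binds KEAP1, the inhibitor of the antioxidant factor NRF2. The gene lies at chr5:179806398-179838078 on the plus strand. PA libraries had 2132 and 1775 CPM at 3 h, against 1288 and 1369 CPM in DMSO libraries. At 12 h the values were 3900.0 and 2699.8 CPM with PA and 1205 and 1294 CPM with DMSO, and at 24 h 3304 and 3850.4 CPM with PA and 1163 and 1286 CPM with DMSO. The groups were apart at each time, and the 8 DMSO libraries, those at 0 h included, stayed within 1163 to 1376 CPM. SQSTM1 was 2.64-fold higher at 12 h (log2 change 1.40 ± 0.17, adjusted p = 4.92e-05) and 2.92-fold higher at 24 h (1.55 ± 0.17, adjusted p = 1.37e-05). At 3 h the change of 0.56 ± 0.16 did not pass the threshold (adjusted p = 0.120); it passed in DESeq2, without the filter, with the 4 libraries alone and after the correction (adjusted p = 0.000523 to 0.0413). The correction reduced the change to 0.86 at 12 h (adjusted p = 1.29e-05) and 1.02 at 24 h (adjusted p = 1.32e-06). Without the first PA library, the 12 h change was 1.12 (adjusted p = 1.94e-05). SQSTM1 shares 1582 exonic bases with C5orf45 and 105 with MGAT4B on the other strand; C5orf45 had 2.98 to 4.12 CPM as group means, and MGAT4B was higher with PA at 12 and 24 h.

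OPTN encodes optineurin, a receptor for damaged mitochondria and bacteria that is activated by the kinase TBK1. It lies at chr10:13099449-13138308 on the plus strand. At 3 h it had 147 and 161 CPM in PA libraries, against 159 and 155 CPM in DMSO libraries, so the groups overlapped. At 12 h it had 168 and 191 CPM with PA and 132 and 141 CPM with DMSO, and at 24 h 197 and 186 CPM with PA and 136 and 135 CPM with DMSO. PA libraries were above DMSO libraries at both later times. The changes were 0.40 ± 0.12 at 12 h (adjusted p = 0.0140) and 0.50 ± 0.12 at 24 h (adjusted p = 0.00311), or 1.41-fold at 24 h. Among all settings the size varied: the correction gave 0.70 at 12 h and 0.86 at 24 h, and limma on log2(RPKM + 1) gave 0.26 (adjusted p = 0.0670) and 0.17 (adjusted p = 0.184). The 12 h call also ended without either DMSO library or the second PA library, at a change of 0.31 to 0.44 (adjusted p = 0.0545 to 0.121), and without the first PA library the change was 0.49 (adjusted p = 0.00911).

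NBR1, a receptor for ubiquitinated cargo and peroxisomes, lies at chr17:43170481-43211689 on the plus strand. It had 106 and 114 CPM in PA libraries at 12 h, against 102 and 113 CPM in DMSO libraries, which overlapped. At 24 h it had 127 and 123 CPM with PA and 114 and 107 CPM with DMSO. The log2 changes were 0.029 ± 0.13 at 12 h (95% interval -0.27 to 0.33) and 0.18 ± 0.13 at 24 h (95% interval -0.12 to 0.48). Neither passed the threshold (adjusted p = 0.868 and 0.252), although the corrected values did, at 0.38 (adjusted p = 0.00796) and 0.59 (adjusted p = 0.000178). Without the first PA library, the 12 h change was 0.085 (adjusted p = 0.709).

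**Figure D4:**
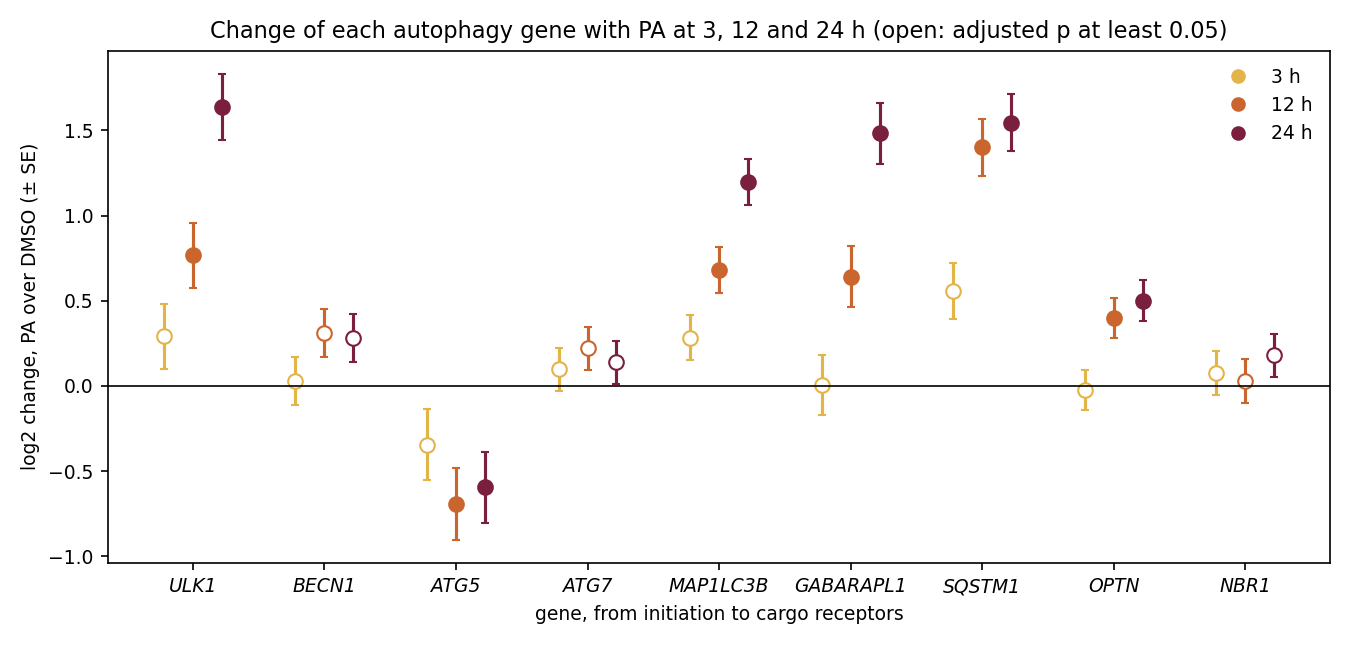
Log2 change of PA over DMSO (vertical axis, ± SE) for each gene at 3, 12 and 24 h, with open points where the adjusted p is at least 0.05. SQSTM1 reaches 1.40 at 12 h and 1.55 at 24 h, whereas ULK1, MAP1LC3B and GABARAPL1 are at 0.64 to 0.77 at 12 h and 1.20 to 1.64 at 24 h.

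Whether an effect of PA differed between times was tested as a difference of differences. From 3 to 12 h, 3 members had an unadjusted p under 0.05: SQSTM1 with a difference of 0.84 ± 0.23 (adjusted p = 0.0649), GABARAPL1 with 0.64 ± 0.25 (adjusted p = 0.156) and OPTN with 0.42 ± 0.17 (adjusted p = 0.159). From 12 to 24 h, ULK1 differed by 0.87 ± 0.27 (adjusted p = 0.260), GABARAPL1 by 0.84 ± 0.25 (adjusted p = 0.224) and MAP1LC3B by 0.52 ± 0.19 (adjusted p = 0.364). No member passed the adjusted threshold in either test, where 2.79% and 0.422% of all genes did; both tests use the 12 h libraries. The unadjusted p was under 0.05 for 23.3% of all genes in the step to 12 h and for 9.66% in the step to 24 h. DESeq2 called 1 member for the step to 12 h and none for the step to 24 h, beside 9.42% and 1.55% of the genes to which it gave an adjusted p. Without the first PA library at 12 h, 2 members were called for the step to 24 h, ULK1 at 1.18 (adjusted p = 0.0108) and GABARAPL1 at 1.0 (adjusted p = 0.0416). Without the second, 4 were called for the step to 12 h.

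In DMSO cultures over time, edgeR called no member at 3, 12 or 24 h relative to 0 h, where 0%, 1.46% and 2.46% of all genes were called. Unadjusted p-values were under 0.05 for 0, 2 and 2 members, namely BECN1 and GABARAPL1 at 12 h and ULK1 and BECN1 at 24 h, where BECN1 was at -0.34 ± 0.14 (adjusted p = 0.238). Over all genes the unadjusted shares were 1.42%, 17.5% and 17.2%. DESeq2 called 1 member at 24 h, where it called 5.66% of the genes to which it gave an adjusted p. These comparisons share their 3, 12 and 24 h DMSO libraries with those of PA against DMSO.

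The remaining autophagy genes were followed through a list of 70, grouped by role, of which 67 were tested. At 3 h, 1 was higher and 1 lower, where 0.138% and 1.58% of all genes were; leaving out any 1 of the 4 libraries left 0 or 1 of these calls. At 12 h, 28 were higher and 16 lower, or 41.8% and 23.9% of those tested, and at 24 h 31 were higher and 17 lower, or 46.3% and 25.4%, beside the shares of all genes given above. The median log2 change was 0.11, 0.31 and 0.30 at 3, 12 and 24 h. The split at 24 h depends on the scaling. It was 34 higher and 10 lower after the correction for GC content and length, and 21 higher and 24 lower on log2(RPKM + 1). Of the called list genes, 64.6% were higher in the main fit, 77.3% after the correction and 46.7% on log2(RPKM + 1). The shares over all called genes were 49.7%, 54.8% and 32.6%. GC content moved with the direction: the median over the higher genes at 24 h was 57.5%, that over the lower genes 40.7% and that over the others 46.3%. Of the 31 higher genes at 24 h, 26 were also called higher after the correction, and of the 17 lower genes 7 were also called lower. At 12 h, 17 of the 28 higher genes and 10 of the 16 lower genes were still called in the same direction.

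**Figure D5:**
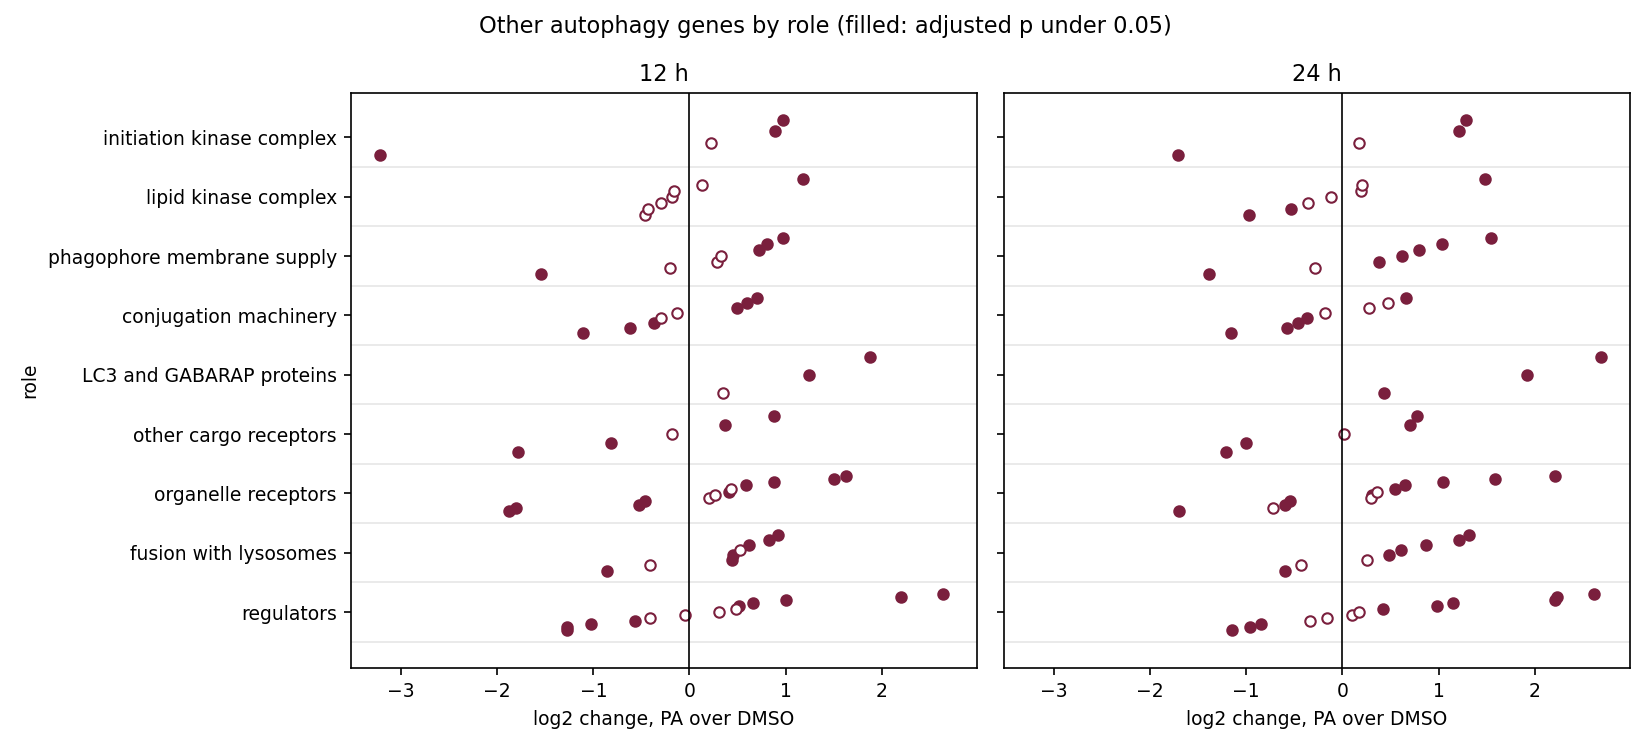
Log2 change of PA over DMSO at 12 h and 24 h for 67 other autophagy genes, in rows by role, filled where the adjusted p is under 0.05. All 3 tested LC3 and GABARAP relatives lie right of 0 at both times, while the conjugation genes lie on both sides.

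The LC3 and GABARAP relatives of the members were higher in 2 of 3 tested cases at 12 h and in 3 of 3 at 24 h; they are named here after their values were seen. MAP1LC3A had 16.7 and 24.1 CPM in PA libraries at 24 h, against 3.87 and 2.43 CPM in DMSO libraries (log2 change 2.69 ± 0.31; 1.82 after the correction). GABARAP had 373 and 306 CPM with PA and 91.0 and 87.9 CPM with DMSO (1.92 ± 0.22; 1.80 after the correction). GABARAPL2 changed less, with 58.6 and 69.8 CPM against 47.9 and 47.3 CPM (0.43 ± 0.14; 0.63 after the correction). The other genes of the initiation kinase group, among them the ULK1 paralogue ULK2, split: of 4 tested, 2 were higher at 12 h and 1 was lower, RB1CC1, which encodes the scaffold FIP200. RB1CC1 had 6.12 and 19.6 CPM in PA libraries at 12 h, against 120 CPM in each DMSO library (-3.22 ± 0.49; -2.22 after the correction). Without the first PA library at 12 h, the change was -2.61. At 24 h RB1CC1 was also lower, at -1.71, and the correction left -0.70 (adjusted p = 0.0442).

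Among lipid kinase genes 1 of 7 was higher and 0 lower at 12 h, and 1 was higher and 2 lower at 24 h. PIK3R4, the regulatory subunit of the complex, had 14.5 and 15.2 CPM with PA at 24 h, against 31.3 and 27.2 CPM with DMSO (-0.98 ± 0.18; -0.46 after the correction). Of 7 tested genes that supply membrane, 5 were higher and 1 lower at 24 h. The conjugation genes, partners of ATG5 and ATG7, had 3 higher and 3 lower of 8 at 12 h, and 1 higher and 4 lower at 24 h. The correction ended every lower call at 12 h. ATG3 and ATG12 were then called higher (0.40 and 0.43, adjusted p = 0.0319 and 0.00717), and ATG4C was at -0.0019. ATG10 stayed higher, ATG4B and ATG4D lost their calls and ATG16L1 was called lower (-0.40). At 24 h ATG16L1 stayed lower (-0.40, adjusted p = 0.00645), while ATG12 was called higher (0.42, adjusted p = 0.00630). ATG3, ATG4C and ATG4B lost their 24 h calls, ATG10 was newly called higher and ATG4D lower. Of 8 genes for fusion with lysosomes, 5 were higher and 1 lower at both times. With the correction YKT6 and TECPR1 lost their calls at 12 h (adjusted p = 0.0589 and 0.0861). At 24 h TECPR1 and STX17 lost theirs (adjusted p = 0.109 and 0.531), and SNAP29 was called higher (0.48, adjusted p = 0.00267). Beside all counts by role, 24.4% of all genes were higher and 24.1% lower at 12 h, and 27.2% and 27.5% at 24 h.

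Receptors for organelles and for other cargo moved both ways. Of 12 organelle receptors, 5 were higher and 4 lower at 12 h, and 6 higher and 3 lower at 24 h, and of 5 other cargo receptors 2 were higher and 2 lower at both times. BNIP3, a mitophagy receptor induced by hypoxia, had 1156 and 1199 CPM in PA libraries at 24 h, against 418 and 364 CPM in DMSO libraries (1.59 ± 0.14; 1.88 after the correction). FKBP8, a receptor of the outer mitochondrial membrane, had 463 and 469 CPM with PA and 97.7 and 104 CPM with DMSO (2.21 ± 0.20; 1.33 after the correction). SEC62, a receptor for endoplasmic reticulum, was the 1 lower gene at 3 h, with 106 and 168 CPM against 320 CPM in each DMSO library (-1.22 ± 0.26, adjusted p = 0.0305). It was also lower at 24 h, with 96.9 and 83.2 CPM against 271 and 316 CPM (-1.70 ± 0.26; -0.60 after the correction). CCPG1, another receptor for endoplasmic reticulum, had 12.3 and 29.9 CPM with PA at 12 h and 73.3 and 73.9 CPM with DMSO (-1.80 ± 0.34, -0.82 after the correction, -1.30 without the first PA library). At 24 h CCPG1 was not called, at -0.73, and the correction gave 0.26 (adjusted p = 0.210). WDFY3, an adaptor for aggregates, was lower at 24 h, with 11.1 and 12.6 CPM against 24.7 and 22.9 CPM (-1.01 ± 0.20; -0.42 after the correction). ATL3, a receptor for tubular endoplasmic reticulum, had 105 and 111 CPM against 170 and 157 CPM at 24 h (-0.60 ± 0.12), and the correction turned this to 0.30 (adjusted p = 0.113).

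Of 13 regulators, 5 were higher and 4 lower at 12 h, and 6 higher and 3 lower at 24 h. DDIT4, a stress-induced inhibitor of mTORC1, was the 1 gene of the list that was higher at 3 h, with 127 and 143 CPM in PA libraries, against 81.6 and 64.5 CPM in DMSO libraries (0.88 ± 0.17, adjusted p = 0.0192). At 12 h it had 261 and 200 CPM with PA and 39.2 and 34.9 CPM with DMSO (2.64 ± 0.18), the correction left 2.04, and without the first PA library the change was 2.44. PINK1, the kinase that marks damaged mitochondria, had 200 and 237 CPM with PA at 24 h and 50.1 and 44.2 CPM with DMSO (2.21 ± 0.20; 1.62 after the correction). MITF, a relative of TFEB, had 8.67 and 15.6 CPM with PA at 12 h and 28.4 and 30.6 CPM with DMSO (-1.28 ± 0.24, -0.61 after the correction, -0.91 without the first PA library). At 24 h MITF was at -0.96, and at -0.24 after the correction (adjusted p = 0.206). TFEB and TFE3 were called higher at 12 h, by 1.01 and 0.66, and at 24 h, by 1.15 and 0.98. After the correction they were at 0.45 and 0.091 at 12 h (adjusted p = 0.160 and 0.444). At 24 h the corrected values were 0.61 (adjusted p = 0.0516) and 0.42 (adjusted p = 0.00117).

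Among the members, the profiles of OPTN and NBR1 lay closest to each other over the 14 libraries, with a root mean square difference of centred log2 CPM of 0.16, and those of MAP1LC3B and ULK1 differed by 0.21. OPTN and NBR1 themselves varied little, with SDs of log2 CPM of 0.19 and 0.13. Genes that vary little come out close by this measure, so a shared profile is not shown. By the same root mean square difference, 10801 other genes were ranked for each called member. Genes near to SQSTM1 were CAPN1 at 0.101 and POR at 0.106, where SQSTM1 itself varied by 0.63 around its mean. The 3 nearest to MAP1LC3B were EI24, MKRN1 and MRAS, at 0.103 to 0.122, and for GABARAPL1 UQCRH, SDHC and NGFRAP1, at 0.151 to 0.164. ULK1 lay nearest to SIRT6, PLIN2 and EVL, at 0.108 to 0.137. ATG5 lay nearest to TARS, TRIT1 and ITGB1, at 0.0833 to 0.105, and OPTN to RNF115, CHMP3 and NRD1, at 0.0858 to 0.0889. Libraries share treatment and GC slope, so these are descriptions of likeness over 14 libraries.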

How the data were processed

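RNA of 14 PANC-1 libraries was sequenced as 151-nt read pairs, per the labels. The deposited counts are whole numbers of reads for each gene without normalization, and the deposited RPKM values were made by the authors from read number, gene length and library size. The submitters' processing notes name TopHat2, edgeR and GRCh38 without versions or roles; how reads were counted, the annotation and the strand setting are not stated there.

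Counts were fitted in R 4.3.3 with edgeR 4.0.16: TMM, filterByExpr, 1 mean for each of 7 groups, quasi-likelihood tests, two-sided, with Benjamini-Hochberg adjustment over 15181 genes and a threshold of 0.05. The SE is the log2 change divided by the square root of F. The code was tested on simulated counts. The longest basic transcript of a gene gave its GC content and length (15071 genes), which entered as spline offsets (5 degrees of freedom). Alternatives used DESeq2 1.42.0 and its size factors, other filters, limma 3.58.1 on log2 RPKM with pseudocounts of 1 and 0.1, a replicate block, 4 libraries alone and leaving out each library. Promoters came from RefSeq.

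Members, lists, motifs and tests were chosen with earlier results of these data known. All members are named; of the list of 70, the 4 called genes with the smallest p each way per PA time; and for each called member its 3 nearest genes with at least 2 CPM, of which 1 is not reported here. Counting intervals cover counting error only.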

Additional observations from a re-analysis of the deposited data

How the results depend on the processing

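At 12 and 24 h, SQSTM1 and MAP1LC3B were called higher under every alternative run, and ULK1 and GABARAPL1 likewise at 24 h. The counts that follow have to be read beside the number of all genes called. At 3 h this was 261 in the main fit, 582 with DESeq2, 1115 without a filter and 650 with the correction. It was 511 with the correction and block, 1183 with the 4 libraries alone, and 235 and 118 on log2 RPKM with pseudocounts of 1 and 0.1. At 12 h the 4 libraries alone called 3671 genes, against 7363 in the main fit. The count of members called at 3 h was 1 with DESeq2, without a filter, with the correction for GC content and length and with the 4 libraries alone, against 0 otherwise; for the pathway list it was 4 with DESeq2, 7 without a filter, 7 with the correction, 6 with the correction and the replicate block, 6 with the 4 libraries alone, 1 on log2(RPKM + 1), 1 on log2(RPKM + 0.1) and 0 to 1 when a library was left out. At 12 h the 4 libraries alone called 2 members and 24 list genes, and leaving out a library gave 3 to 6 members, with 3 without the first PA library or the second DMSO library. For the difference from 3 to 12 h, 1 member was called with DESeq2, without a filter and with either correction, and 0 to 4 when a library was left out; from 12 to 24 h it was 2 with the correction, 1 with the correction and block and 0 to 2 when a library was left out. DMSO at 24 h against 0 h gave 1 with DESeq2, without a filter, with either correction and with 4 libraries alone. DMSO at 12 h gave 1 with 4 libraries alone. Of all genes, the step from 3 to 12 h called 423 in the main fit, 1208 with DESeq2, 1808 without a filter, and 1063 and 930 with the corrections. The step to 24 h called 64, and 316 and 251 with the corrections. DMSO at 24 h called 373, then 759 with DESeq2, 703 without a filter, 1372 and 1208 with the corrections and 2644 with 4 libraries alone. DMSO at 12 h called 221, and 2850 with 4 libraries alone.

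Directions turned as follows; the cause was not tested. With the correction, ATG5 became 0.067, 0.14 and 0.25 at 3, 12 and 24 h and OPTN 0.10 at 3 h; with the replicate block added, ATG5 became 0.070, 0.14 and 0.24 and OPTN 0.10. On log2(RPKM + 1), with or without an RPKM minimum of 1, ATG7 became -0.020 at 12 h and -0.21 at 24 h, NBR1 -0.098 and -0.13, and BECN1 -0.038 at 24 h; with a pseudocount of 0.1 they became -0.022 and -0.24, -0.10 and -0.14, and -0.040. RPKM values carry no TMM scaling, and the median of all genes moved by -0.13 at 12 h and -0.28 at 24 h. The filter of 5 CPM put GABARAPL1 at -0.020 at 3 h. Leaving out a library put GABARAPL1 at 3 h between -0.12 and 0.16, ATG7 between -0.034 and 0.23, OPTN between -0.089 and 0.045 and NBR1 between -0.024 and 0.18, and NBR1 at 12 h between -0.055 and 0.096.

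No pairing was detected between libraries of equal replicate number. Their deviations from the group means correlated at over 0.1 in 2 of 21 comparisons of groups, with a range of -0.22 to 0.24. With 2 libraries in each group, such correlations cannot exclude a pairing. With the number as a replicate block, 5 members were higher and 1 lower at 12 and 24 h. Among list genes 27 and 30 were higher and 16 and 17 lower. Over all genes this fit called 7098 and 8033, of which 49.8% and 49.7% were higher. A count of 0 allows 3 reads, or 0.0852 to 0.114 CPM, far below any member.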
